A study of Macaca mulatta with 24 samples.

Results

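EPHA2 and 9 other genes of the Eph receptor and ephrin family were followed through wood smoke exposure and recovery in cultured airway epithelium of rhesus macaques. The members were the rows whose symbol was EPHA2, EPHA1, EPHA4, EPHB2, EPHB3, EPHB4, EPHB6, EFNA1, EFNB1 or EFNB2, which gave 10 of the 35432 genes of the table, and all 10 were among the 14062 genes that passed the filter on low values. EPHA2 was selected on its measured difference between smoke and air at 5 days and on the change of that difference between 1 and 5 days. Its values at 1 and 5 days, and comparisons that share those libraries, are therefore given as a description, without a test. The values behind the choice of the other 9 members are not recorded, so their adjusted p-values are those of the fit over all genes and are not independent evidence.

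Eph receptors form a large family of receptor tyrosine kinases, and ephrins are their ligands. Both are anchored in the cell membrane, so signalling takes place where cells touch, and it can run forward into the cell with the receptor and in reverse into the cell with the ephrin. Ephrins of the A class are held by a lipid anchor and bind mostly EphA receptors, and ephrins of the B class span the membrane and bind mostly EphB receptors and EPHA4. In epithelia the system is known for cell sorting at boundaries, for the stability of junctions, for migration and for wound repair.

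Tracheobronchial epithelial cells of adult females were grown on porous inserts and then differentiated with retinoic acid at the interface of air and medium. The 6 groups, with 1 library from each of 4 animals (S1 to S4) in every group, were diluted whole wood smoke and filtered air after 1 day, after 5 consecutive days, and at the end of a 7-day recovery in standard culture that came after the 5 days, with exposures of 6 hours per day. S1 to S4 were 5463, 2930, 2238 and 1128 days old, so age cannot be told apart from animal, and no genetic change or other agent is named in the labels. Values are normalized counts, that is, reads per gene after scaling of each library by the authors, and 4 values in a row below are given in the order S1 to S4. The files hold no transcript lengths, so levels are compared between groups and never between genes.

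The 24 libraries had normalized totals of 11.8 to 15.2 M and approximate depths of 9.46 to 17.4 M reads, with 1 read worth 0.727 to 1.61 normalized counts. One library, air at 5 days from S1, was unlike the rest: its median r with the remaining libraries was 0.860, and that of each of the other 23 was 0.931 to 0.956. Results that rest on it are given with and without it. Adjusted p-values come from limma over all genes tested, first without a block, then with animal as a block, and then from a blocked fit that omits this S1 library, called the 23-library fit below. Genes of basal cells (KRT5) and of ciliated cells (FOXJ1, 1217 to 10285) were present in every library. Among secretory genes, the club cell gene SCGB1A1 was low (3.43 to 47.8), and BPIFA1 was at 0 in 11 of 24 libraries. PIGR (1662 to 49171), LCN2 (1177 to 16256), SLPI (440 to 4963) and BPIFB1 (123 to 159768) were present in every library. MUC5B ranged from 1.11 to 12361, SCGB3A1 from 2.89 to 1245 and TFF3 from 11.8 to 278. The summed level of these secretory genes was 78233 to 235191 in S1 and 4018 to 25294 in the other animals. Among defining markers of other cell types, the leukocyte gene PTPRC was at 0 in 22 of 24 libraries, and CDH5 of endothelium and LUM of fibroblasts were at 0 in all 24. Other genes of those marker lists were present, among them LYZ (1471 to 4679), PDGFRA (340 to 685) and KDR (1310 to 20429).

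EPHA2 (ENSMMUG00000018245), a receptor for A-class ephrins that is abundant in many epithelia, was higher in smoke than in air after 1 day and lower after 5 days. After 1 day it had 2705, 2659, 2928 and 2619 normalized counts in smoke, against 2237, 2218, 2266 and 2105 in air. All 4 smoke libraries lay above all 4 air libraries, and the mean level was 2728 ± 138 in smoke and 2206 ± 70.1 in air (SD, n = 4 each), 1.24-fold higher. After 5 days EPHA2 had 2346, 2655, 2549 and 2421 normalized counts in smoke, against 3247, 3738, 3269 and 3302 in air. Now every smoke library lay below every air library, with means of 2493 ± 137 in smoke and 3389 ± 233 in air, 1.36-fold lower. The log2 differences between smoke and air of the same animal were 0.27, 0.26, 0.37 and 0.32 after 1 day. After 5 days they were −0.47, −0.49, −0.36 and −0.45, so the sign turned in each of the 4 animals. In bulk cultures fewer cells of a type and less RNA per cell cannot be told apart.

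Most of the movement of EPHA2 between 1 and 5 days was in the air cultures. Its level in air was 1.53-fold higher after 5 days than after 1 day (log2 0.62). The 4 libraries of each time did not overlap, as in 12.6% of all genes tested. In smoke the level after 5 days was lower than after 1 day by a mean log2 difference of −0.13, lower in 4 of 4 animals, and the libraries of the 2 times overlapped. The change of the smoke effect from 1 to 5 days was −0.75 ± 0.11 (difference of log2 fold changes ± SE). Without S1's 5-day air library the order of the groups is the same, since the other 3 air values are 3738, 3269 and 3302. Scaling by library totals in place of the authors' factors shifted the median of all genes in this change by over 0.1, to 0.16, and gave −0.59 for EPHA2.

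After the recovery week EPHA2 had 3233, 3221, 2805 and 3235 normalized counts in smoke, against 2739, 2663, 2838 and 2633 in air. Smoke was higher in 3 of 4 animals, and S3 had almost the same level in both (log2 differences 0.24, 0.27, −0.02 and 0.30). The groups overlapped through S3, and the fitted difference of 0.20 ± 0.07 did not pass the test over all genes in limma (adjusted p = 0.387, and 0.131 with the block). It passed in the 23-library fit (adjusted p = 0.0212), where the omission changes the estimate of the spread and not the recovery values. That spread comes in part from the 1-day and 5-day libraries on which EPHA2 was chosen, so this p-value is not independent of the choice. In a blocked fit of the recovery libraries alone EPHA2 was not called. From 5 days to recovery the level in air was 1.25-fold lower and that in smoke 1.25-fold higher, each without overlap between times. Of all genes tested, 15.8% were without overlap in air and 8.19% in smoke over that interval.

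**Figure D1:**
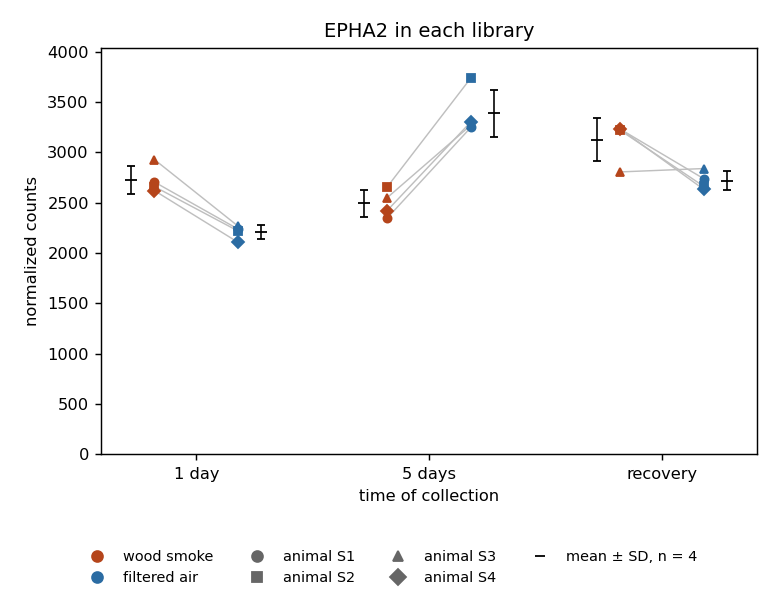
EPHA2 level in normalized counts (y axis) in the 24 libraries, at 1 day, 5 days and recovery, with smoke left of air at each time. Points are libraries, grey lines join the libraries of 1 animal, and bars show mean ± SD (n = 4); the 4 smoke points lie above the air points at 1 day (2619 to 2928 against 2105 to 2266), below them at 5 days (2346 to 2655 against 3247 to 3738) and overlap them at recovery.

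EFNA1 (ENSMMUG00000005350), the A-class ligand best known as a partner of EPHA2, rose with time in air. In air it had 1940, 1445, 858 and 1093 normalized counts after 5 days, against 764, 588, 495 and 719 after 1 day. The 5-day libraries all lay above the 1-day ones, where 12.6% of all genes were without overlap in either direction. The EFNA1 level was 2.01-fold higher (log2 1.01 ± 0.23, adjusted p = 0.0208, and 0.00167 with animal as a block). The call without a block was lost when animal 1, 2 or 4, or the 1-day air library of S3, was left out, and with the block it held in each of 4 omissions of an animal. The 23-library fit gave 0.82 (adjusted p = 0.0016). With smoke, EFNA1 had 926, 1409, 690 and 1149 after 5 days, overlapping the air libraries of that time, with the S3 smoke value below all 4 of them. At recovery it had 1037, 1440, 982 and 1138 in smoke, against 856, 931, 933 and 884 in air. All 4 smoke libraries lay above all 4 air libraries, but the difference did not pass the test in the fit over all libraries (adjusted p = 0.805, 0.368 with the block and 0.124 in the 23-library fit). In a blocked fit of the 8 recovery libraries alone the adjusted p was 0.0160.

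EPHA1 (ENSMMUG00000055322), another EphA receptor of epithelia, was close in smoke and air after 1 day, at 461, 401, 396 and 418 normalized counts in smoke and 459, 382, 383 and 417 in air. After 5 days it ranged from 372 to 402 in smoke and from 382 to 412 in air. At recovery it had 333, 243, 280 and 293 in smoke, against 341, 317, 332 and 356 in air, lower in 4 of 4 animals with overlapping groups. The fitted log2 difference was −0.24 ± 0.10, with an adjusted p of 0.452, or 0.102 with the block and 0.0176 in the 23-library fit.

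EPHA4 (ENSMMUG00000012364), which binds ephrins of both classes, had its lowest mean at 5 days in smoke (179 normalized counts) and in air (140). After 1 day it had 226, 241, 168 and 289 normalized counts in smoke, against 298, 256, 229 and 354 in air. Smoke was lower in 4 of 4 animals, with overlapping groups and no call in the fits over all libraries. After 5 days the values were 160, 244, 96.4 and 217 in smoke, against 17.7, 168, 118 and 258 in air, and the value of 17.7 is that of the S1 library that stood apart. In air EPHA4 rose between 5 days and recovery, where it had 361, 528, 370 and 646 (log2 2.22 ± 0.52, adjusted p = 0.0107, and 0.00114 with the block). Without S1's 5-day air library this rise was 1.46 (adjusted p = 1.77e-06 in the 23-library fit), and without animal 2 the call without a block was lost. At recovery smoke-exposed cultures had 247, 407, 217 and 340, lower than air in each animal (log2 differences −0.55, −0.38, −0.77 and −0.92) although the groups overlapped. That difference was −0.65 ± 0.52 in the fit, with an adjusted p of 0.848, or 0.459 with the block and 0.00406 in the 23-library fit.

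Among the EphB receptors, EPHB2 (ENSMMUG00000023382), a receptor for B-class ephrins known from cell sorting in the gut of mice, showed its widest gap at recovery. It had 802, 575, 424 and 453 normalized counts in smoke, against 854, 877, 645 and 840 in air. The difference was small in S1 (log2 −0.09) and larger in S2, S3 and S4 (−0.61, −0.60 and −0.89), and the groups overlapped through S1. Its fitted value of −0.55 had an adjusted p of 0.489, or 0.0567 with the block and 0.00167 in the 23-library fit. After 5 days the direction was opposite, with 813, 580, 387 and 691 in smoke against 368, 497, 377 and 593 in air, and 1 animal, S1, carried most of it (log2 1.14 against 0.04 to 0.22 in the other 3). The fitted value was 0.41, or 0.21 in the 23-library fit, and was not called. The change of the smoke effect from 5 days to recovery was −0.95 ± 0.33 (adjusted p = 0.257 without and 0.0214 with the block), and the blocked call was lost when S2, S3 or S4 was left out. This change was −0.76 in the 23-library fit (adjusted p = 0.00481). In air EPHB2 rose between 5 days and recovery (log2 0.83 ± 0.23, adjusted p = 0.0281, and 0.00101 with the block), and the 23-library fit gave 0.63. The times did not overlap, as in 15.8% of all genes. The call of this rise without a block was lost without animal 1, 2 or 4, and without the air libraries of S1 at 5 days or of S1, S2 or S4 at recovery.

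EPHB3 (ENSMMUG00000003304), a receptor that overlaps with EPHB2 in function, was higher in smoke after 1 day, with 313, 318, 325 and 328 normalized counts in smoke against 258, 296, 266 and 277 in air. The groups did not overlap and the means were 321 ± 7.0 in smoke and 274 ± 16.3 in air, yet the difference passed no fit over all libraries. In a blocked fit of the 8 libraries of that day it passed narrowly (log2 0.23, adjusted p = 0.0481), as did 9.11% of all genes in that fit. At 5 days and recovery the groups overlapped.

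EPHB4 (ENSMMUG00000007375), the main receptor of ephrin-B2, ranged from 160 to 368 normalized counts over the 24 libraries. No smoke comparison of EPHB4 passed in any of the 3 fits over all libraries.

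EPHB6 (ENSMMUG00000016218), a receptor whose kinase domain is inactive, had few reads and the widest ratio between the groups at recovery among the members. It had 15.3, 17.7, 20.7 and 9.19 normalized counts in smoke, against 34.8, 37.8, 58.7 and 22.3 in air. Every smoke library lay below every air library, and the level was 2.31-fold lower, with similar log2 differences in all 4 animals (−1.14, −1.05, −1.46 and −1.19). The fitted difference of −1.21 ± 0.37 had an adjusted p of 0.232 without a block, 0.0375 without a block and without S1's 5-day air library, and 0.0366 with the block, where EPHB6 fell. In the 23-library fit the adjusted p was 0.00169, and in the blocked fit of the recovery libraries alone it was 0.00617. When S2, S3 or S4 was left out of the blocked fit over all libraries, the call was lost, and the log2 difference stayed between −1.26 and −1.13 over the 4 omissions. After 5 days EPHB6 had 24.5, 22.9, 30.7 and 29.1 in smoke, against 67.5, 17.9, 21.7 and 20.9 in air, so S1 and the other 3 animals went opposite ways.

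Of the B-class ligands, EFNB1 (ENSMMUG00000020965) was lower in smoke at 5 days and at recovery. After 5 days it had 908, 1335, 892 and 1002 normalized counts in smoke, against 1391, 1523, 1355 and 1153 in air. It was lower in 4 of 4 animals (log2 −0.62, −0.19, −0.60 and −0.20), with overlapping groups. At recovery it had 1061, 1162, 1030 and 860 in smoke, against 1308, 1433, 1233 and 1231 in air, without overlap (log2 −0.30, −0.30, −0.26 and −0.52). With animal as a block EFNB1 fell at both times, by 0.40 on the log2 scale at 5 days (adjusted p = 0.0225) and by 0.35 at recovery (adjusted p = 0.0284). Without the block the adjusted p was 0.365 and 0.456, and both blocked calls were lost when S2, S3 or S4 was left out. In the 23-library fit the adjusted p was 0.00921 at 5 days and 0.00258 at recovery.

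After 1 day EFNB1 pointed the other way, with 1126, 1510, 1081 and 1109 normalized counts in smoke against 960, 1305, 1005 and 966 in air. Smoke was higher in 4 of 4 animals, the groups overlapped, and the difference did not pass in the fits over all libraries. In a blocked fit of the 8 libraries of that day its adjusted p was 0.0131 (log2 0.19). The turn of sign between 1 and 5 days in every animal is the one described for EPHA2, and the change of the smoke effect was −0.59 ± 0.20. This change had an adjusted p of 0.953, or 0.113 with the block and 0.0225 in the 23-library fit.

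EFNB2 (ENSMMUG00000009892), a ligand of EPHB4 and other EphB receptors, had few reads in every library. At recovery it had 43.4, 21.6, 22.6 and 11.5 normalized counts in smoke, against 59.9, 43.3, 32.7 and 36.2 in air. It was lower in 4 of 4 animals with overlapping groups, by log2 differences of −0.46, −0.97, −0.51 and −1.58. The fitted value of −0.88 ± 0.36 had an adjusted p of 0.452, or 0.164 with the block and 0.0194 in the 23-library fit.

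**Figure D2:**
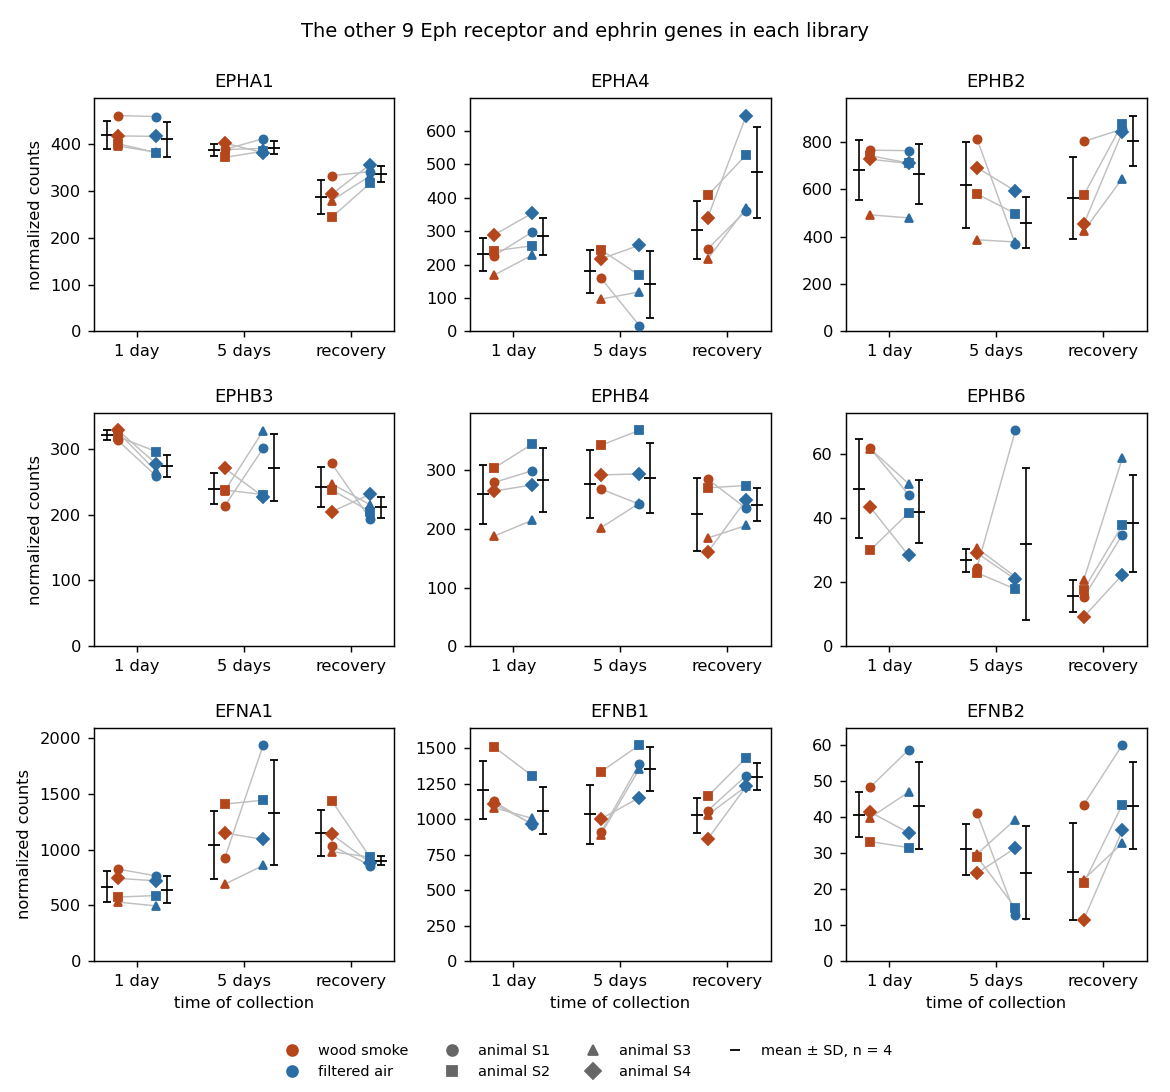
Levels of the other 9 members in normalized counts (y axes start at 0) in the 24 libraries, with smoke left of air at each time. Points are libraries, grey lines join the libraries of 1 animal, and bars show mean ± SD (n = 4); at recovery the smoke points of EPHB6 (9.19 to 20.7 against 22.3 to 58.7) and EFNB1 (860 to 1162 against 1231 to 1433) lie below all air points, and those of EFNA1 (982 to 1440 against 856 to 933) lie above them.

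Set against all genes tested, few members were called for smoke without a block. EPHA2 was selected on the 5-day difference and on its change from 1 day, so calls at 1 and 5 days, of the changes and over time in air are counted among the other 9 members. After 1 day 0 of these 9 were called, where 0.0284% of the 14062 genes were, and after 5 days 0, where 0.0711% were. At recovery 0 of all 10 members were called, where 0.242% of genes were. With animal as a block the counts were 0 of 9 at 1 day (0.0782% of genes), 1 of 9 at 5 days, EFNB1 (1.69%), and 2 of 10 at recovery, EFNB1 and EPHB6 (3.41%). In the 23-library fit they were 0 of 9 at 1 day (0.963%) and 1 of 9 at 5 days, EFNB1 (6.33%).

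At recovery this last fit called 7 of 10 members where it called 18.8% of all genes, and 6 of the 7 were lower in smoke: EPHA1, EPHA4, EPHB2, EPHB6, EFNB1 and EFNB2. EPHA2 was the 1 higher, with a spread estimated in part from the libraries on which it was chosen. The blocked fit called 6 members without animal S1, where it called 20.7% of all genes. It called 0 members without S2, S3 or S4, where the shares of all genes were 0.295%, 0.238% and 0.158%. The blocked fit of the recovery libraries alone called 18.8% of all genes and 6 members, EFNA1 higher and EPHA4, EPHB2, EPHB6, EFNB1 and EFNB2 lower. By direction of the log2 fold change, 3 members were above 0 and 7 below at recovery, with a median of −0.29 against 0.01 over all genes. After 1 day 7 were above and 3 below (median 0.04 against 0.00), and after 5 days 3 were above and 7 below (median −0.05 against 0.01). Both of these splits include EPHA2, which was selected on its values at those times. In the 23-library fit the 5-day split was 4 above and 6 below, since EPHB6 was at 0.36 there, against −0.04 without a block. Among the members other than EPHA2, groups without overlap were seen for EPHB3 at 1 day (4.1% of genes) and for none at 5 days (3.46%). At recovery they were seen for 3 members, EPHB6, EFNA1 and EFNB1 (8.04%). EPHA2 was also without overlap at 1 and 5 days, which is not counted here because it was selected on values of those times.

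**Figure D3:**
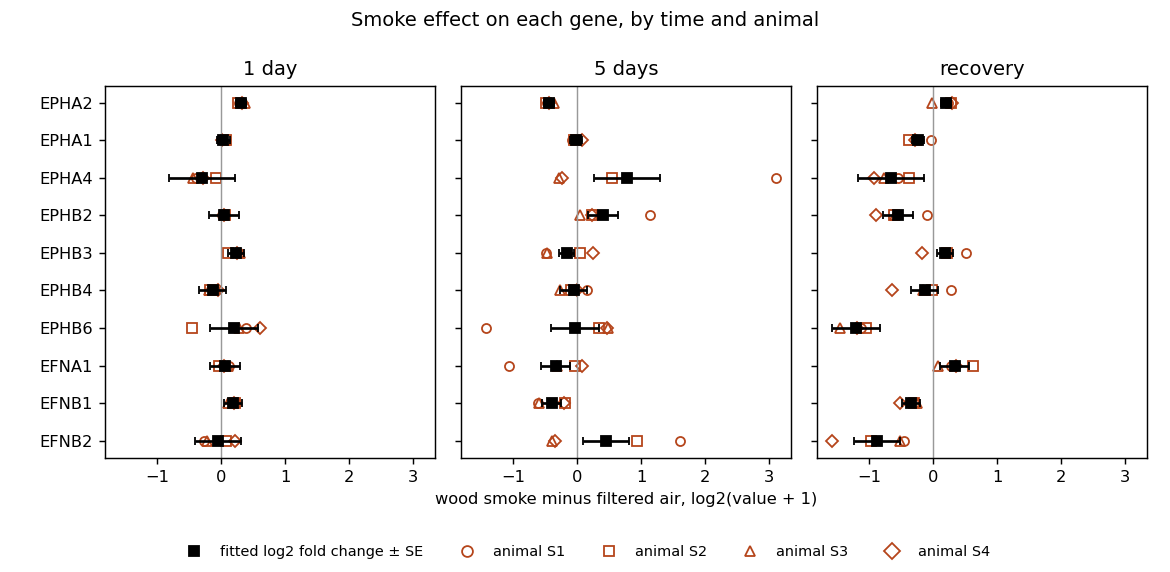
Log2 fold change of smoke over air (x axis) for the 10 members at 1 day, 5 days and recovery. Squares with bars are fitted values ± SE from limma without a block, and open symbols are the differences within each of the 4 animals; EPHA2 lies at 0.31, −0.44 and 0.20 over the 3 times, and 7 of 10 members lie below 0 at recovery.

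The change of the smoke effect and the course in air share their 5-day libraries with the comparisons above. For the change from 1 to 5 days 0 of the 9 members other than EPHA2 were called without a block (0.0142% of genes) and with it (0.0427%), and 1, EFNB1, in the 23-library fit (0.307%). From 5 days to recovery the counts were 0 (0.348%), then EPHB2 (3.56%), then EPHB2 and EPHB6 (11.3%), in the same order of fits. Over time in air, 5 days against 1 day called 1 of the 9, EFNA1, without a block (3.98% of genes), 4 with the block (19.4%) and 5 in the 23-library fit (18.7%). The members added by the block were EFNB1 higher and EPHA4 and EPHB2 lower, and then EPHB6 lower. Without S1's library the log2 difference of EPHA4 was −0.74, against −1.50 with it. These blocked calls were lost without S3 for EFNB1, without S2 or S3 for EPHB2 and without S2, S3 or S4 for EPHA4. In air, recovery against 5 days called EPHA4 and EPHB2 without a block (11.3% of genes), 4 of the 9 with the block (28.4%) and 5 in the 23-library fit (27.1%). The block added EPHA1 and EPHB3, both lower, and leaving out any 1 animal ended the call of EPHA1, as leaving out S1, S2 or S3 did that of EPHB3. The 23-library fit called EPHA1, EPHB4 and EPHB6 beside the first 2.

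Some cell type marker sums also differed between smoke and air at recovery. The summed level of the 10 basal cell markers in the table was 28687 to 48823 in smoke and 66294 to 79257 in air, without overlap, and 9 of the 10 were below 0. KRT5, the basal keratin (log2 −1.22, adjusted p = 0.0173), and ITGB4, the hemidesmosome integrin (−1.04, adjusted p = 0.00912), fell without a block. The proliferation marker sum was 1060 to 1550 in smoke and 1566 to 1603 in air, and the ciliated sum was 10149 to 28383 in smoke and 8925 to 19943 in air. The squamous sum was 29521, 21483, 21951 and 29542 in smoke, against 38642, 27976, 37516 and 41744 in air, lower in each animal. KRT13 made up most of this sum, with a median of 22599 over all libraries, against 2930 for KRT4 and 186 for DSG3. The secretory sum was 5352 to 97378 in smoke and 4018 to 78233 in air. The part of these markers in the lower EPHB6, EFNB1, EPHB2, EPHA4 and EFNB2 was not tested. At 5 days all 10 proliferation markers were above 0, with a median log2 fold change of 0.48 and none called by limma without or with the block. Their sum was 1358 to 2898 in smoke and 1197 to 2184 in air, higher in smoke in 4 of 4 animals, and its part in the lower EPHA2 and EFNB1 was not tested. The squamous sum was 22066 to 28927 in smoke and 27124 to 61439 in air at that time, where 61439 is the S1 library unlike the rest and the other 3 air libraries reached 34127. Of the 7 squamous markers 4 were above 0 and 3 below, with a median of 0.03. At 1 day the basal sums overlapped, at 64134 to 79909 in smoke and 64500 to 80282 in air. They also overlapped at 5 days, at 46043, 53267, 38719 and 45293 in smoke, against 62398, 53403, 50345 and 41298 in air. The value of 62398 is that of the S1 library unlike the rest, and S4 was higher in smoke.

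The rest of the family was scarce. Of 12 further Eph and ephrin genes 11 were matched in the table and 5 passed the filter on low values: EPHA3 (2.23 to 38.8 normalized counts), EFNA2 (3.73 to 26.4), EFNA3 (35.3 to 177), EFNA5 (16.2 to 66.0) and EFNB3 (10.3 to 108). None of these 5 was called for smoke in limma, without or with the block. The lowest recovery value among them was that of EPHA3, log2 −1.33 with an adjusted p of 0.445, or 0.0661 with the block and 0.0118 in the 23-library fit. EFNA3, an A-class ligand, rose in air between 1 and 5 days with the block (log2 0.76, adjusted p = 0.0281), but not without it (adjusted p = 0.175) or in the 23-library fit (0.59, adjusted p = 0.0745). EPHA5, EPHA8 and EPHB1 were listed at 0 in all 24 libraries, EPHA6 in 23, EPHA7 in 10 and EPHA10 in 5.

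Downstream of Eph receptors lie adaptors, Src-family kinases and exchange factors for small GTPases, and 49 of 51 such genes were tested. At recovery 1 of the 49 was called, lower, in either fit: SRC, the kinase recruited by active receptors (log2 −0.55 ± 0.11, adjusted p = 0.0428, and 0.00335 with the block). The shares of all genes called were 0.242% without and 3.41% with the block. In the 23-library fit 1 of the 49 was called higher and 12 lower at recovery, where 18.8% of all genes were called. After 5 days SHC1, an adaptor, fell with the block (log2 −0.29, adjusted p = 0.0436), where 1.69% of all genes were called. After 1 day none was called by limma in these fits. In air between 1 and 5 days NCK1, an adaptor, rose (log2 0.79, adjusted p = 0.00408), and TIAM1, an activator of Rac (−0.68, adjusted p = 0.0367), and ABL2, a non-receptor kinase (−1.08, adjusted p = 0.0208), fell. That fit, without a block, called 3.98% of all genes. NCK1 was at 0.86, TIAM1 at −0.45 and ABL2 at −0.72 in the 23-library fit, each called. Between 5 days and recovery in air ABL2 rose (1.17, adjusted p = 0.00577) and ARHGEF16, an exchange factor that binds EPHA2, fell (−0.71, adjusted p = 0.0339). Without a block 11.3% of all genes were called in that comparison. The 23-library fit gave 0.81 for ABL2 and −0.56 for ARHGEF16, both called.

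Among 14 other receptor tyrosine kinases, 13 were below 0 at recovery, with a median log2 fold change of −0.19 against 0.01 over all genes. AXL (−0.98, adjusted p = 0.0228) and PTK7 (−0.24, adjusted p = 0.0435) fell with the block, and none was called without it. The shares of all genes called were 3.41% with the block and 0.242% without it. In the 23-library fit 1 of the 14 was called higher and 5 lower at recovery, where 18.8% of all genes were called. In air EGFR (−1.48, adjusted p = 0.0358) and IGF1R (−0.93, adjusted p = 0.0357) fell between 1 and 5 days, while EPHA2 was higher. That fit, without a block, called 3.98% of all genes. EGFR was at −0.75 and IGF1R at −0.50 in the 23-library fit, both called. Without a block ERBB2 fell in air between 5 days and recovery (−0.41, adjusted p = 0.0149), and EPHA2 was lower too (−0.32). With the block PTK7 (0.26, adjusted p = 0.00722) and FGFR3 (0.69, adjusted p = 0.0251) rose in that comparison. It had 11.3% of all genes called without and 28.4% with the block. ERBB2 was at −0.39, PTK7 at 0.25 and FGFR3 at 0.32 in the 23-library fit, each called.

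Genes whose course most resembled that of EPHA2 were ranked by Pearson r of log2 values, each as a deviation from its mean within an animal, over the 24 libraries and 12453 genes with a symbol. The 5 highest were NECTIN4, an adhesion protein of junctions (0.79), ATG12 of autophagy (0.78), RSRP1 (0.78), PMEL (0.77) and MAP1LC3B, also of autophagy (0.77). The 3 lowest were CCNF, a cyclin (−0.88), PARD6G, a polarity protein (−0.86), and RHNO1 of the DNA damage response (−0.85). An r above 0.5 was reached by 7.16% of genes, and all of these values share the same libraries. The share of genes with strongly negative r was not counted. Within the family EFNA1 followed EPHA2 most closely (0.66), then EFNA3, which is not among the members (0.46), and then EFNB1 (0.40). EFNB2 (−0.55), EPHB2 (−0.52) and EPHB6 (−0.45) ran opposite to EPHA2. Between other members the highest values were those of EPHB2 with EFNB2 (0.82) and of EPHA4 with EPHB2 (0.80), and the lowest was that of EFNA1 with EFNB2 (−0.72).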

How the data were processed

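Poly-A RNA sequencing of 24 libraries, 4 animals in each of 6 groups, gave 1 table. Per the submitters' processing notes, FastQC, Trim Galore, Bowtie2 and RSEM were used, without versions. Genome build, annotation and normalization tool were not given in the sources used here. The deposited values are a normalized signal per gene, called normalized counts, and not the raw counts of the table's name, since they are not whole, and the median ratio of every library to the geometric mean was 1.01. Among low values (below 20 steps), 77.1 to 82.8% per library came out whole in steps of 1 read, within 0.1 of a step, so whole reads were not recovered and the planned edgeR count test was not used. Counting error and floors cannot be computed, and precision is given as the spread between animals.

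Values were analysed as log2(value + 1), so fold changes of low genes are understated. The 14062 genes reaching 10 in 4 or more libraries were fitted with limma 3.58.1 in R 4.3.3, with group means over all 24 libraries, a variance trend and no block. A call is a two-sided p under 0.05 after Benjamini-Hochberg adjustment over all genes tested. The first alternative adds animal as a block, and a further one also omits air at 5 days from S1 (the 23-library fit). The animal number pairs the libraries by label, and libraries of 1 animal deviated from their group means together (r 0.303 to 0.804, median 0.612, against −0.443 to 0.0149, median −0.189, between animals). The fit without a block was tested on simulated data for smoke against air at 5 days, with libraries independent of each other. The blocked fits and the pairing of animals were not simulated.

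The members, gene lists and tests were chosen with earlier results of these data known. All members are named, with every other family gene past the filter, at most 4 partner and kinase genes per list and comparison among those called, and the 5 genes most and 3 least like EPHA2. Other alternatives were scaling, pseudocount, filter, only the libraries of a contrast, and leaving out each animal or library; the block with each animal left out was added after the data were seen.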

Additional observations from a re-analysis of the deposited data

Results flagged for a closer look

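Within groups of 4 libraries, 7 values lay far from the other 3 among the 60 groups of the 10 members, and chance flags about 1 in 20 groups. EPHA2 had 2805 normalized counts in the smoke recovery library of S3, below 3221 to 3235 in the other 3, and 3738 in the 5-day air library of S2, above 3247 to 3302. EPHB2 was lowest in S3, at 492 in smoke after 1 day and 645 in air at recovery. EFNB1 was highest in S2 after 1 day, at 1510 in smoke and 1305 in air. EPHB6 had 67.5 in the 5-day air library of S1, the library that stood apart from all others, against 17.9 to 21.7 in the other 3 animals.

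In 3 cases the smoke effect of every animal had opposite signs at consecutive times. How often this occurs over all genes was not counted. For EPHA2 the change from 1 to 5 days was −0.75 (difference of log2 fold changes), given without a test because the gene was chosen with this change known. For EFNB1 the change over the same interval was −0.59 (adjusted p = 0.953, 0.113 with animal as a block and 0.0225 in the blocked fit of 23 libraries that omits that S1 library). For EPHB2 the change from 5 days to recovery was −0.95 (adjusted p = 0.257, and 0.0214 with the block). Its log2 differences were near 0 in S3 at 5 days (0.04) and in S1 at recovery (−0.09). The largest at 5 days, 1.14 in S1, rests on the air library that stood apart, and without that library the change was −0.76.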

How the results depend on the processing

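The counts here are over all 10 members, EPHA2 included, and nothing is read from its calls in the comparisons that chose it. The shares of all genes called without a block, with it and in the fit of 23 libraries stand with the counts further up. The animal block (the pairing by animal number) gave 2 members called after 5 days, against 1 without it. At recovery it gave 2 against 0, for the change from 5 days to recovery 2 against 1, in air between 1 and 5 days 5 against 2, and in air between 5 days and recovery 5 against 3. It left 0 after 1 day and 1 for the change from 1 to 5 days. In the blocked fit of 23 libraries, which omits air at 5 days from S1, the number was 1 at 1 day, 2 at 5 days, 7 at recovery, 2 for the earlier change, 3 for the later one, and 6 in each air comparison. Only the libraries of a contrast gave 0 for 5 days, both changes and both air comparisons. With the block as well it gave 4 at 1 day (EPHA4, EPHB3 and EFNB1 beside EPHA2), 6 at recovery, and 0 at 5 days and in both air comparisons. That blocked fit called 9.11% of all genes at 1 day and 18.8% at recovery. Library totals as the only scaling gave 0 at 5 days and 0 for the change from 1 to 5 days.

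Leaving out 1 animal or 1 library without a block gave 0 at 1 day, 0 to 1 at 5 days, at recovery and for each change, 1 to 3 in air between 1 and 5 days and 0 to 5 in air between 5 days and recovery. The number called over all genes varied too. At recovery it was 0 to 495 without 1 animal and 2 to 352 without 1 library. In air between 5 days and recovery it was 304 to 1118 and 811 to 2468. With the block and 1 animal left out the numbers were 0 to 1 at 1 day, 0 to 2 at 5 days, 0 to 6 at recovery, 0 to 1 and 0 to 3 for the changes, 2 to 6 in air between 1 and 5 days and 2 to 5 in air between 5 days and recovery. Over all genes these omissions gave 3 to 77 calls at 1 day, 6 to 852 at 5 days and 22 to 2860 at recovery. The changes had 1 to 34 and 1 to 1561 calls, and the air comparisons 784 to 2647 and 2140 to 3737. Without S1's 5-day air library 4 member values, none called in either fit, changed sign: EPHB6 at 5 days (−0.04 and 0.36 without it) and for the earlier change (−0.23 and 0.16), and EPHB4 for the earlier change (0.07 and −0.04) and the later one (−0.08 and 0.04). Depth limits EPHB6 and EFNB2 most, since their lowest values stand for few reads. Pseudocounts of 0.1 and 10, filters and the upper quartile scaling left these counts as they were, although the stricter filter removed EFNB2.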
